A study of Rattus norvegicus with 3 samples.

Results

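The Id and E protein genes encode 2 opposed groups of helix-loop-helix proteins, and their transcripts were described here in cultured Schwann cell precursors, which are embryonic glia of peripheral nerves. The 7 genes were the table rows named Id1, Id2, Id3 and Id4 (the Id inhibitors) and Tcf3, Tcf4 and Tcf12 (the E proteins), out of 17337 genes listed, and all 7 were found by symbol. The cells were taken from the dorsal root ganglia of wild-type rat embryos, were grown in a modified Sato medium and were untreated. RNA was sequenced in 3 libraries, all of 1 group, with 14139074 to 15309526 counts each. The labels give no strain, no embryonic age and no statement that the libraries came from separate cultures, so the spread between them may be technical.

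E proteins are transcription factors with a basic region, which binds DNA at E-boxes (CANNTG), next to a helix-loop-helix through which they pair. They act as pairs with each other or with tissue-restricted partners, the class II basic helix-loop-helix (bHLH) factors. Id proteins have the helix-loop-helix but no basic region. They pair with E proteins and keep them off DNA, and they are known for holding progenitor cells, including glial ones, back from differentiation. BMP signals acting through Smad proteins are a well-known inducer of Id genes.

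Levels are given in TPM, which is counts per listed gene length scaled to the same total in each library. The labelled cell type was checked against marker genes. By limma, a linear model test run over all genes, the 8 Schwann cell lineage markers used here were all above 100 TPM (15.0% of all genes tested), with summed levels of 6495 to 6573 TPM per library, led by S100b, Ednrb and Ngfr. All 8 fibroblast markers were above 100 TPM too, with sums of 8646 to 8853 TPM. Of 7 sensory neuron markers, the 4 genes Tubb3, Prph, Nefl and Stmn2 were above 100 TPM, and the sums were 620.2 to 641.8 TPM. The 6 endothelial markers summed to 34.0 to 36.4 TPM. Cdh5 at 16.6 ± 1.03 and Emcn at 13.7 ± 0.836 TPM were above 10 TPM (61.0% of all genes tested). Tek at 4.69 ± 0.211 TPM was above 1 TPM (78.4%), while Pecam1 and Kdr were below 1 TPM (17.8%) and Cldn5 had no count. The 6 macrophage markers summed to 21.7 to 24.1 TPM, with Lyz2, Tyrobp and Csf1r above 1 TPM (78.4% of all genes tested). Ptprc at 0.316 ± 0.0756 and Adgre1 at 0.499 ± 0.0396 TPM were below 1 TPM (17.8%), and Aif1 at 1.21 ± 0.670 TPM passed in neither direction. These are bulk cultures, so fewer cells of a type and less RNA per cell cannot be told apart, and which cells held the Id and E protein transcripts was not tested.

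In rn6 coordinates, Id1 (NCBI gene 25261) is found on chromosome 3 (plus strand, 148215588 to 148216715), with 2 exon blocks listed. Id2 (25587) is found on chromosome 6 (minus strand, 44360077 to 44361908), Id3 (25585) on chromosome 5 (plus strand, 154489603 to 154491172) and Id4 (291023) on chromosome 17 (minus strand, 16692557 to 16695126), each with 3 exon blocks. The E protein genes are far longer. Tcf3 (171046) spans 12146642 to 12168400 on the plus strand of chromosome 7 with 20 exon blocks, Tcf4 (84382) spans 65285320 to 65507979 on the plus strand of chromosome 18 with 17, and Tcf12 (25720) spans 78345754 to 78655856 on the minus strand of chromosome 8 with 21. No other listed gene overlaps the span of any of the 7 genes, on either strand. The symbols Tcf3 and Tcf4 are also used in the literature for the HMG-box factors Tcf7l1 and Tcf7l2. Those 2 genes have rows of their own, and the descriptions and NCBI identifiers of Tcf3 and Tcf4 are those of the E protein genes.

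The summed exon length used for TPM was 733 to 1626 bases for the Id genes and 2025 to 2781 bases for the E protein genes. For Tcf4 the table lists 1 transcript, where RefSeq on GRCr8 lists 37, and a last exon block of 171 bases. For Tcf12 it lists 17 transcripts, where RefSeq lists 23, and a last exon block of 193 bases. Reads from exons that are not listed were not counted, so the levels below are per listed exon length.

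Since E-boxes are the letters that E proteins read and Id proteins keep them from, a window of 200 bases before each gene was searched for CANNTG, which reads the same on both strands. The windows run from 250 to 51 bases before the start given in RefSeq's promoter entries on GRCr8, and all 7 genes were matched. The highest and the lowest Id gene are shown with Id2, the only Id gene with a match, 5′ to 3′ along the gene's strand, with the E-box in capitals.
Id3: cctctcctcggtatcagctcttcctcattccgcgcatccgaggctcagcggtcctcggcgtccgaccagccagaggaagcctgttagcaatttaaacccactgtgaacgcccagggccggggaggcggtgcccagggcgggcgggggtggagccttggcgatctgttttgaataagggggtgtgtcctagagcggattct
Id2: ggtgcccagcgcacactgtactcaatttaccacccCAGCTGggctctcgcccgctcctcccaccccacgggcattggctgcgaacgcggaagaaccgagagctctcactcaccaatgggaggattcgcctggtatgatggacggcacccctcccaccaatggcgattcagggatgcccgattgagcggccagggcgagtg
Id1: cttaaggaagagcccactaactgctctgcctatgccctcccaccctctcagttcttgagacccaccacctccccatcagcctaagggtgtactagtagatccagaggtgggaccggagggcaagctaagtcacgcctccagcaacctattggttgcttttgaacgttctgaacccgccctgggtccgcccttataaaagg
The Id3 window is chr5:153656041-153656240 on the plus strand, the Id2 window chr6:47471046-47471245 on the minus strand and the Id1 window chr3:161671314-161671513 on the plus strand. The Id2 window holds 1 match, CAGCTG, beginning 215 bases before the start, and the Tcf3 window holds CATTTG and CAGATG, beginning 146 and 123 bases before it. No CANNTG was found in these windows of Id1, Id3, Id4, Tcf4 and Tcf12. The windows of Tcf4 and Tcf12 lie within the outermost span that RefSeq lists for those genes, which have several starts, and end 2755 bases into the span of Tcf4 and 2365 into that of Tcf12. In total, 2 of the 7 windows held a CANNTG, against 57.9% of the 33469 RefSeq windows of the same length. A match is a match of letters only, and the lack of one says only that the letters are not in that window.

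Id3 was the highest of the Id genes, and of all 7. Its level was 254.0, 247.1 and 240.6 TPM in replicates 1, 2 and 3, or 247 ± 6.72 TPM (SD, n = 3). The count behind it was 1768, 1601 and 1560. Id2 and Id4 followed, close to each other. Id2, an inhibitor that also binds proteins of the retinoblastoma family, was at 98.6, 91.7 and 91.2 TPM, a mean of 93.8 ± 4.16. Id4, known in rodents for restraining oligodendrocyte differentiation, was at 88.8, 91.8 and 86.7 TPM, a mean of 89.1 ± 2.60. The values of Id2 and Id4 overlap between libraries, and Id4 was the higher of the pair in replicate 2. Id1, a classical early target of BMP signalling, was far lower than the other Id genes, at 11.3, 10.7 and 11.4 TPM, a mean of 11.2 ± 0.356, from 76, 67 and 71 counts.

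Among the E proteins, Tcf3, which encodes the E2A proteins, was the highest at 158.2, 163.2 and 157.5 TPM, a mean of 160 ± 3.13 (SD, n = 3). It had the largest counts of the 7 genes, 3015 to 3251 per library. Tcf12, which encodes HEB, was at 105.2, 99.0 and 105.6 TPM, a mean of 103 ± 3.70. Tcf4 was the lowest E protein gene in every library, at 46.6, 47.9 and 45.3 TPM, a mean of 46.6 ± 1.31. The 3 E protein genes did not overlap one another in any library.

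**Figure D1:**
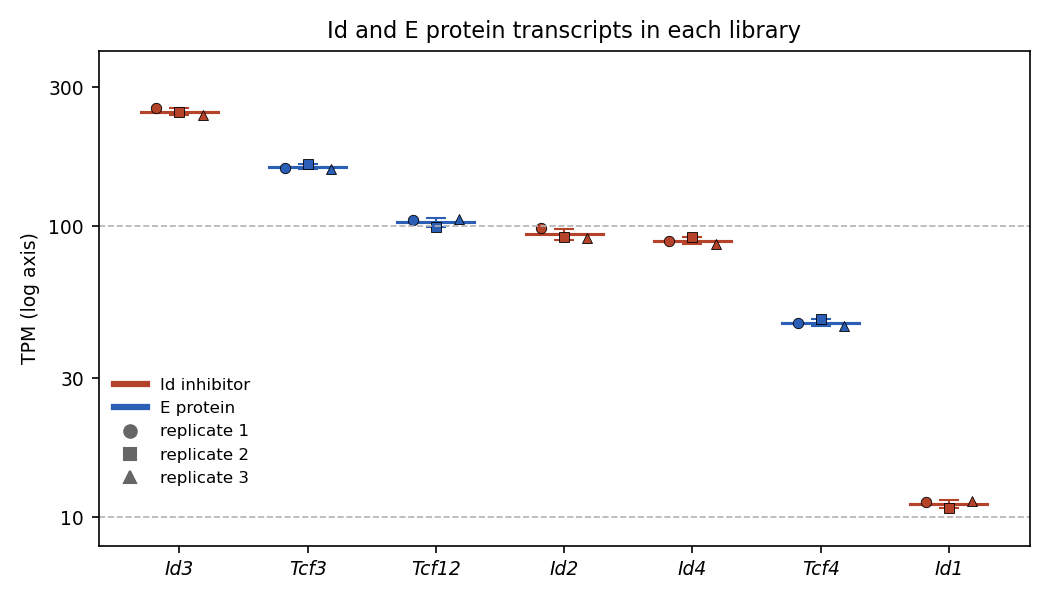
TPM of the 7 genes (log axis) in each of the 3 libraries, in order of mean, with the mean as a line and the SD as bars; dashed lines mark 10 and 100 TPM. Id3 stands highest at 241 to 254 TPM, Id2 and Id4 overlap, and Id1 lies lowest at 10.7 to 11.4 TPM.

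Each gene of the table with a count was tested with limma against fixed levels of 1, 10 and 100 TPM, on log2(TPM + 1), two-sided, and called at a Benjamini-Hochberg adjusted p under 0.05 over all 13345 genes tested. All 7 genes were above 1 TPM, as were 78.4% of the genes tested, and above 10 TPM, as were 61.0%. Above 100 TPM were 2 of the 7, Id3 and Tcf3, against 15.0% of the genes tested. Below 100 TPM were 4, Id1, Id2, Id4 and Tcf4, against 83.5%, and Tcf12 passed in neither direction. At 1 and 10 TPM such calls are common, so they say little of these genes beyond their being present.

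Relative to the value at 100 TPM, Id3 was higher by 1.30 ± 0.0217 (SE) and Tcf3 by 0.67 ± 0.0211 on the log2(TPM + 1) scale. The limma adjusted p was 1.14e-09 for Id3 and 2.67e-08 for Tcf3. Both lay above 100 TPM in 3 of 3 libraries. Tcf12 differed from 100 TPM by 0.05 ± 0.0270, limma adjusted p = 0.142, and lay above it in 2 of 3 libraries. Without replicate 2 its limma adjusted p became 0.0338, so the failure to pass at 100 TPM rests on that library.

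Id4 lay below 100 TPM in 3 of 3 libraries, by a log2 difference of -0.17 ± 0.0260 (limma adjusted p = 0.000515). Id2 lay below it in 3 of 3 libraries as well, by -0.09 ± 0.0297 (limma adjusted p = 0.0189). The call for Id2 did not hold without replicate 2 (limma adjusted p = 0.0690) or without replicate 3 (0.0919), with no filter on low values (0.0725) or without the trend in the variance (0.0726). Tcf4 was lower than the value at 100 TPM by a log2 difference of -1.09 ± 0.0313 and Id1 by -3.06 ± 0.0581, in 3 of 3 libraries each.

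Id1 was near 10 TPM. Its difference from that level was 0.14 ± 0.0581, limma adjusted p = 0.0472, above it in 3 of 3 libraries. With any 1 library left out the limma adjusted p was 0.0646 to 0.182. The 95% exact Poisson interval for counting error was 8.94 to 14.2, 8.32 to 13.6 and 8.88 to 14.3 TPM in replicates 1, 2 and 3, and 10 TPM lies inside each.

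Against the whole table, Id3 ranked 736th of 13345 genes with a count by mean TPM, and 94.5% of those genes were lower. The share that was lower was 90.4% for Tcf3, 84.8% for Tcf12, 83.3% for Id2, 82.2% for Id4, 68.0% for Tcf4 and 38.8% for Id1. In that order Id2 and Id4 lie close to each other between Id3 and Id1, and Id1 is the member below the middle. The median over the 7 genes was not tested. The median level of genes with a count was 21.7 ± 0.195 TPM.

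The order of the 7 genes was read from TPM ratios within each library. Id3 exceeded Tcf3 by a mean log2 TPM ratio of 0.63 ± 0.0457 (SD, n = 3). Tcf3 exceeded Tcf12 by 0.63 ± 0.0804, and Tcf12 exceeded Id2 by a smaller 0.14 ± 0.0634, with no overlap between their values. Id2 over Id4 was 0.15, -0.00302 and 0.07 in replicates 1, 2 and 3, so this pair of neighbours did not differ beyond its spread. Id4 exceeded Tcf4 by 0.94 ± 0.00431, and Tcf4 exceeded Id1 by 2.06 ± 0.0845.

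Of the 21 pairs among the 7 genes, 20 kept 1 direction in 3 of 3 libraries, and only Id2 and Id4 overlapped. With 3 libraries the exact sign-flip permutation test of a ratio, two-sided, cannot go below p = 0.25, which each of those 20 pairs reached, while Id2 over Id4 gave p = 0.5. Within the Id family, Id3 was 22.2-fold above Id1 (log2 ratio 4.47 ± 0.0618), 2.64-fold above Id2 and 2.78-fold above Id4. Within the E proteins, Tcf3 was 3.43-fold above Tcf4 and Tcf12 was 2.22-fold above it.

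This order depends on dividing by gene length. With counts not divided by length, Id3 was lower than Tcf3 (log2 ratio -0.93) and Id2 was lower than Id4 (-1.08), since Tcf3 has 2781 bases of listed exons to 942 for Id3, and Id4 has 1626 to 733 for Id2. How evenly reads were recovered along each transcript was not measured.

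Summed over the family, Id transcripts exceeded E protein transcripts. The 4 Id genes summed to 452.8, 441.4 and 429.8 TPM, and the 3 E protein genes to 310.0, 310.1 and 308.3 TPM. The ratio of the sums was 1.46, 1.42 and 1.39, a mean of 1.43 ± 0.0333 (SD, n = 3, not tested), with the Id sum higher in each library. By counts not divided by length the ratio was 0.571, with the E proteins then higher. Without Id3 the other Id genes summed to 194 ± 4.77 TPM, and their ratio to the full E protein sum was 0.627 ± 0.0137. That ratio leaves out the highest Id gene but keeps Tcf3, the highest E protein gene, so it was bound to be lower. It therefore does not show that the direction of the ratio of sums is owed to Id3 alone. These are transcript levels, and protein was not measured.

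Each family was uneven. Id3 made up 56.0 ± 0.0686% of the summed Id TPM, Id2 21.3 ± 0.507%, Id4 20.2 ± 0.597% and Id1 2.53 ± 0.108% (SD, n = 3). Tcf3 made up 51.6 ± 0.913% of the summed E protein TPM, Tcf12 33.4 ± 1.26% and Tcf4 15.1 ± 0.382%. With counts not divided by length, Id4 came second among the Id genes, at 31.7% against 15.1% for Id2.

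**Figure D2:**
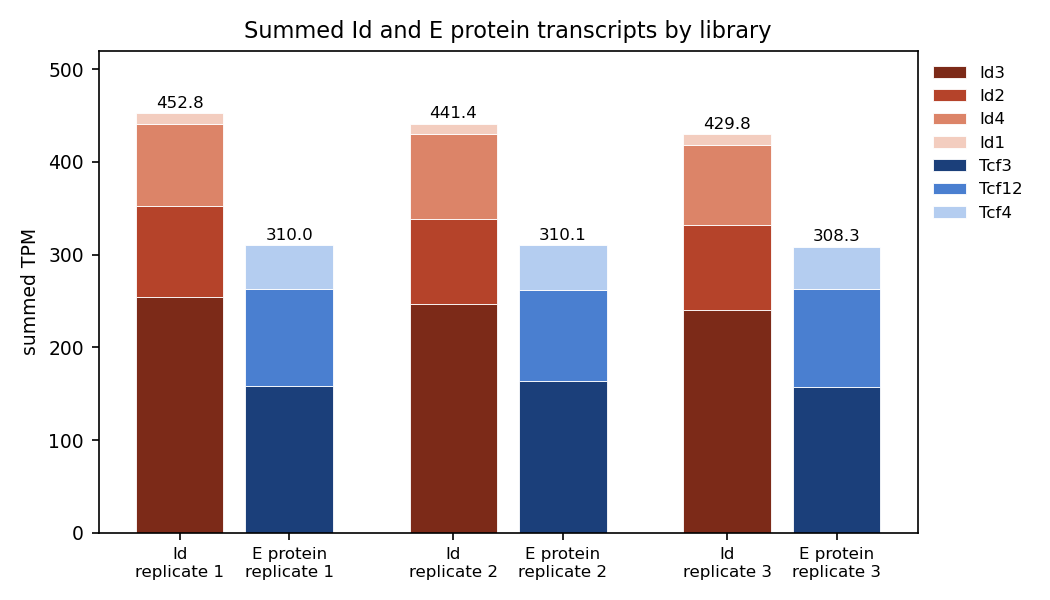
Summed TPM of the 4 Id genes (red) and the 3 E protein genes (blue) in each library, stacked by gene, with the sum above each bar. The Id sum is the taller in each library, at 429.8 to 452.8 TPM against 308.3 to 310.1 TPM for the E proteins, and Id3 is the largest block of the Id bars.

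Levels were close between libraries. The highest library exceeded the lowest by 1.04-fold for Tcf3 to 1.08-fold for Id2, with the other members between them. None of the 7 passed 1.2-fold, against 7.54% of the 8372 genes with a mean of 10 TPM or more, and none passed 1.1-fold, against 34.4%. The coefficient of variation was 1.96% (Tcf3) to 4.43% (Id2), where the median of those 8372 genes was 3.84%. Counting error alone gives 11.8% for Id1, whose libraries varied by 3.19%, and 2.33% for Tcf12, whose libraries varied by 3.59%. For the other members counting error alone gives 1.79% to 4.54%. No single library was highest for all members, since Id2 and Id3 were highest in replicate 1, Id4, Tcf3 and Tcf4 in replicate 2, and Id1 and Tcf12 in replicate 3.

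Most of the class II partners of E proteins were at or near 0. Of 46 class II bHLH genes considered, 39 were measured, 21 had a count and 18 had none. By limma, 5 of the 21 with a count were above 1 TPM (78.4% of all genes tested), 13 were below it (17.8% of all genes tested), and 3 were above 10 TPM (61.0% of all genes tested). The median over the 39 was 0.0137 ± 0.0237 TPM, against 8.38 ± 0.159 TPM over all genes listed. Twist1, a factor of mesenchyme and neural crest, was the highest at 36.3, 33.8 and 35.6 TPM. Bhlhe22, a repressor known from neurons, followed at 23.6, 23.2 and 22.1 TPM, and Twist2, a relative of Twist1 known from skin mesenchyme, was at 11.6, 14.3 and 13.0 TPM. These 3 genes carried 88.6 ± 0.596% of the summed class II TPM. Twist1 and Twist2 are also expressed by fibroblasts, whose markers were present as given above, and the part of fibroblasts in these levels was not tested. Atoh8 at 2.04 ± 0.193 TPM and Msc, the gene of the repressor musculin, at 1.47 ± 0.0710 TPM were the other class II genes above 1 TPM.

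No count was found for the muscle regulators Myod1, Myf5, Myf6 and Myog, the neuronal regulators Neurog1, Neurog3, Neurod2, Neurod6, Atoh1 and Atoh7, or Olig3, Bhlhe23, Hand1, Hand2, Ptf1a, Ferd3l, Mesp1 and Msgn1. A count of 0 allows a level of up to 0.183 to 0.969 TPM, depending on the gene's length and the library, taking 3 counts as the floor, which covers counting error only. The class II sum was 81.2, 79.8 and 79.9 TPM in replicates 1, 2 and 3. The summed Id TPM was 5.58, 5.53 and 5.38 times that sum, and the summed E protein TPM 3.85 ± 0.0327 times it (SD, n = 3, not tested).

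The bHLH repressors of the Hes and Hey families, several of which are Notch targets, were present in these libraries. Of 10 measured genes, 8 had a count and were tested with limma. Of these 8, 7 were above 1 TPM (78.4% of all genes tested) and 5 above 10 TPM (61.0%), and the median over the 10 was 14.6 ± 0.871 TPM. The Notch target Hey1 was at 68.8 ± 6.66 TPM, Hey2 at 66.2 ± 0.778, Hes6, an antagonist of Hes1, at 53.2 ± 1.83, Hes1 at 47.8 ± 2.75 and Bhlhe40 at 20.7 ± 1.79. Hes2 and Hes5 had no count. The summed Id TPM was 1.65 ± 0.0719 times the sum of these 10 genes.

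Among the 30 measured helix-loop-helix genes of these 4 lists with a count in every library, the 5 highest by mean TPM were Id3, Tcf3, Tcf12, Id2 and Id4. Tcf4 was 10th and Id1 15th. The lists were not chosen blind to these data, so this order is a description. By the largest absolute log2 TPM ratio over the 3 libraries, the gene closest in level to Tcf4 was Hes1 (0.0762), and the gene closest to Id1 was Twist2 (0.409), each out of 29 genes compared. Tcf12 was closest to Id2 (0.211), and Id2 and Id4 were closest to each other (0.151), while Id3 and Tcf3 were closest to each other at a larger 0.683. With 3 libraries of 1 group, no correlation between genes was computed.

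**Figure D3:**
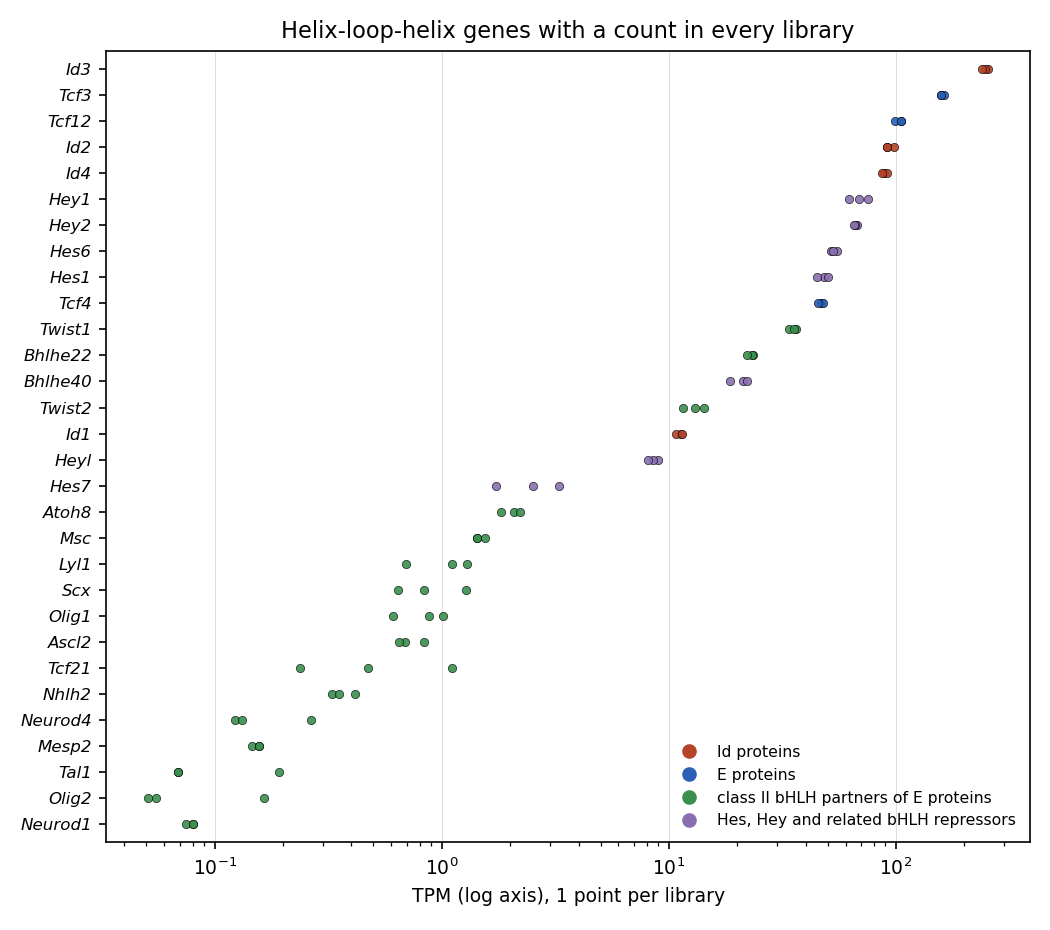
TPM (log axis) of the 30 helix-loop-helix genes with a count in every library, 1 point per library, in order of mean and coloured by list. Id3, Tcf3, Tcf12, Id2 and Id4 form the top, above Hey1, and most class II partners lie near or below 1 TPM, apart from Twist1, Bhlhe22 and Twist2.

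Among genes that carry or curb BMP signals to Id genes, Smads, receptors and a Smad ligase were the highest. All 26 listed genes were measured, 20 were above 1 TPM by limma (78.4% of all genes tested) and 12 above 10 TPM (61.0%), with a median of 10.9 ± 0.552 TPM. The highest were Smad4, the common partner of the signalling Smads, at 132 ± 4.37 TPM, and Smurf1, a ubiquitin ligase that targets Smads and receptors, at 108 ± 1.89. The type I receptor Bmpr1a was at 96.2 ± 2.62, Smad5, which BMP receptors activate, at 89.6 ± 7.17, and the type I receptor Acvr1 at 64.5 ± 1.70 TPM. The genes named in the next sentences were chosen after their values were seen. Smad1, also activated by BMP receptors, was at 30.9 ± 0.978 TPM. The ligands Bmp4 and Bmp7 were at 13.9 ± 0.370 and 13.2 ± 1.05 TPM. Bmp2 was at 0.343 ± 0.311 TPM, below 1 TPM by limma (17.8% of all genes tested). The extracellular inhibitor Nog had 3 counts over all libraries. The other listed extracellular inhibitors, Chrd and Grem1, were at 4.76 ± 0.471 and 0.87 ± 0.178 TPM. The decoy receptor Bambi was at 59.1 ± 4.71 TPM.

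Cofactors of E proteins were uneven. Of 12 listed genes 9 were measured, 8 were above 1 TPM by limma (78.4% of all genes tested) and 6 above 10 TPM (61.0%), with a median of 22.4 ± 1.01 TPM. The LIM-only gene Lmo4 was at 502.4, 485.7 and 479.2 TPM, higher than any of the 7 members in each library. Its relatives Lmo2 and Lmo1, named after their values were seen, were far lower, at 6.14 ± 0.697 and 3.88 ± 0.841 TPM. Both were below 10 TPM by limma, as were 4735 of the 13345 genes tested. Ldb1, whose protein binds LIM-only proteins, was at 186 ± 4.48 TPM and its relative Ldb2 at 32.1 ± 1.73. The corepressor gene Cbfa2t2, of the ETO family, was at 28.4 ± 2.43 TPM, and the acetyltransferase gene Crebbp at 22.4 ± 1.01.

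Genes for the turnover of Id proteins, which are short-lived, were all expressed. By limma all 7 passed 10 TPM (61.0% of all genes tested). Their median was 66.5 ± 1.99 TPM. The proteasome subunit gene Psmd4 was at 201 ± 0.949 TPM and Cops5, of the COP9 signalosome, at 129 ± 2.54. The activators of the anaphase-promoting complex Cdc20 and Fzr1 were at 111 ± 4.80 and 66.5 ± 1.99 TPM, and its subunit Cdc27 at 55.6 ± 4.15. The deubiquitinase Usp1, known for stabilising Id proteins in other cells and picked after its value had been seen, was at 30.3 ± 2.21 TPM. Most of these genes also serve proteins other than Id.

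**Figure D4:**
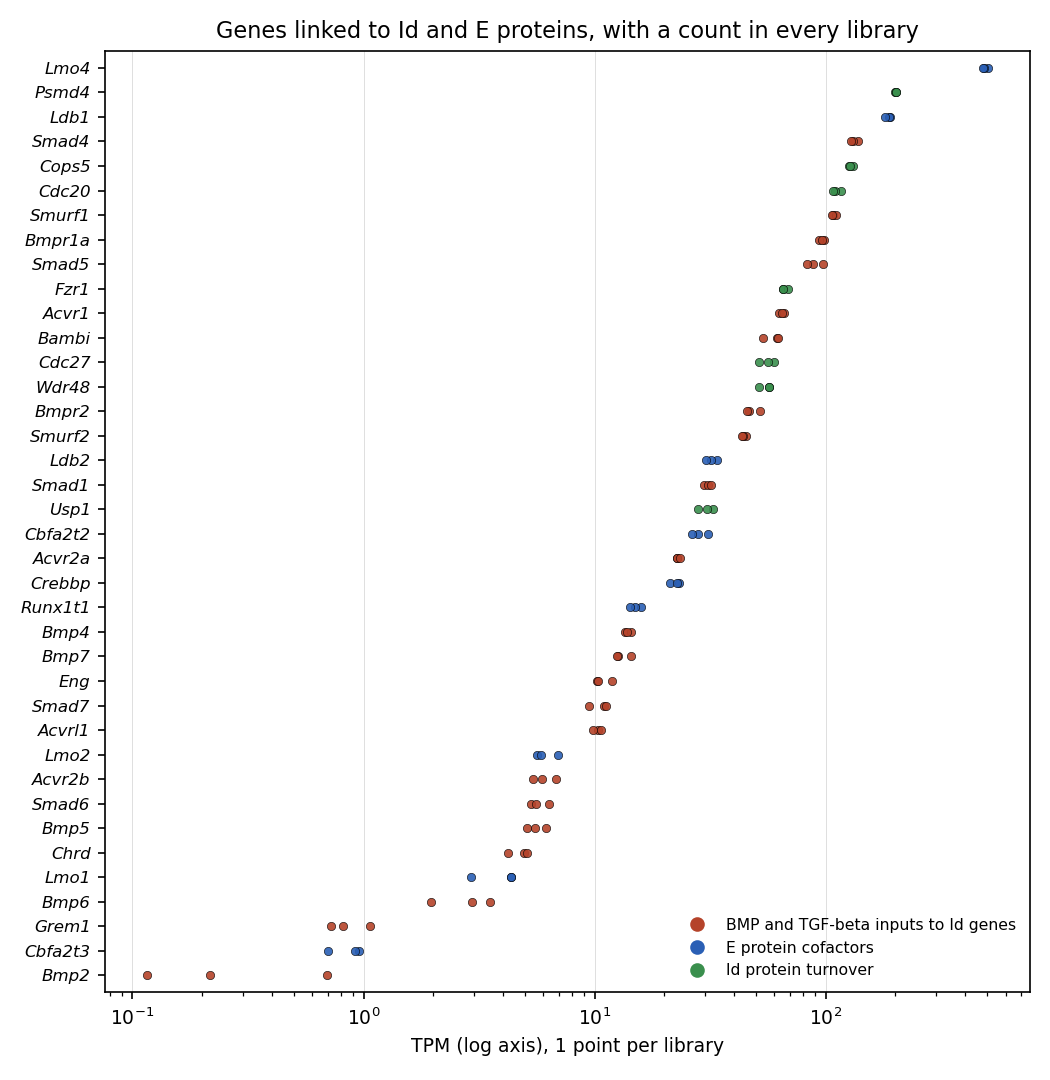
TPM (log axis) of genes linked to BMP input, E protein cofactors and Id turnover that had a count in every library, 1 point per library, in order of mean. Lmo4 stands at the top at 479 to 502 TPM, Smad4 and Bmpr1a lie near 100 TPM, and Bmp2 is the lowest.

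All 12 cell cycle genes linked to Id and E proteins were above 1 TPM by limma (78.4% of all genes tested) and 11 passed 10 TPM (61.0%). Their median was 32.0 ± 1.04 TPM. The 3 highest, Cdkn1b, Cdkn2b and Cdkn1a, encode cyclin-dependent kinase inhibitors, as does Cdkn1c, which came after Ets1. Another inhibitor gene of the list, Cdkn2a, was lower, at 35.1 ± 0.399 TPM. The list holds several such inhibitors, so their place at its top partly follows from its makeup. Cdkn1b was at 211 ± 6.33 TPM, Cdkn2b at 84.7 ± 4.54, Cdkn1a, a gene that E proteins activate and Id proteins oppose in other cells, at 79.5 ± 5.14, and Cdkn1c at 69.0 ± 2.90. Ets1, a transcription factor that Id proteins can also bind, was at 77.1 ± 3.69 TPM. The HMG-box factors with look-alike names were at 43.2 ± 3.08 TPM for Tcf7l1, 32.3 ± 1.76 for Tcf7l2 and 17.4 ± 0.702 for Lef1, apart from the values of Tcf3 and Tcf4 given above.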

How the data were processed

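The authors deposited raw counts per gene, gene lengths and TPM (counts over listed gene length, scaled to the same total in each library). Per the submitters' processing notes, STAR 2.5.2b, Subread and the build rn6 were used. The annotation, whether counting used strand, and the treatment of multi-mapping reads were not given in the sources used here. Total counts per library were 15309526, 14139074 and 14162738. TPM recomputed from the deposited counts differed by at most 0.0005. The 2 rows without a name and 9 other columns of per-library values were not used. Of 163 list symbols 148 were matched, all by symbol, and 15 were not used here. Some listed genes are not reported here and were left out of the lists' counts and sums.

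Genes with a count in at least 1 library were tested with limma 3.58.1 (R 4.3.3) on log2(TPM + 1). This was a one-sample moderated test with a variance trend and Benjamini-Hochberg adjustment over all those genes. The test was also run on simulated counts with the same dispersion set for every gene. That run does not show how often calls close to a level are wrong in these data. The pseudocount shrinks differences of low genes. Ratios, sums and shares carry no test, apart from an exact sign-flip test of each ratio. edgeR 4.0.16 gave TMM scaling as an alternative. Other alternatives were pseudocount, filter, trend, length scaling and leaving out each library. Counting intervals and floors cover counting error only. The rule was to name the 5 highest genes of each list and those with no count; the cell type marker lists are given mainly by counts and sums, with some markers named. The members and lists were chosen with earlier results of these data known.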

Additional observations from a re-analysis of the deposited data

How the results depend on the processing

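The direction of each member's difference from 1, 10 and 100 TPM held in all 168 alternative fits, and 160 kept their side of the limma threshold. The others were Id1 against 10 TPM without any 1 library, Id2 against 100 TPM and Tcf12 against 100 TPM, as given above. The filter sets how many low genes enter the test. With no filter 6235 genes were below 1 TPM and 8615 below 10 TPM, and 1372 were below 1 TPM among genes with a mean of 0.1 TPM or more, in place of 2374, 4735 and 2374. Counts of members and listed genes past a level stayed within 1.5 times.

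With counts not divided by length, log2 ratios were -0.93 for Id3 over Tcf3, 0.77 for Tcf3 over Tcf12, 1.93 for Tcf12 over Id2, -1.08 for Id2 over Id4, 0.62 for Id4 over Tcf4 and 3.22 for Tcf4 over Id1, and the Id to E protein ratio was 0.571. With 1 TPM added, Id4 over Tcf4 was 0.92 and Tcf4 over Id1 was 1.97. Of 8372 genes, 2883 passed 1.1-fold between libraries and 258 to 327 passed 1.2-fold with 1 library left out, in place of 631 with all 3, since fewer libraries give a smaller range. No paired analysis was possible because all libraries belong to 1 group. Depth limits what can be said of Id1 and of class II genes near 0.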
